A study of Mus musculus with 16 samples.

Results

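PCGF5 peaks that carry a Polycomb mark in neural precursor cells (NPCs) are the subject here. A peak of the NPC PCGF5 list was counted as marked when at least 1 bp of it lay under a peak of H3K27me3 or H2AK119ub1 in wild type (WT) NPCs. By this rule 758 of the 12013 NPC PCGF5 peaks were marked, which is 6.31%. Of these, 568 overlapped H3K27me3 alone, 165 overlapped both marks and 25 overlapped H2AK119ub1 alone. H3K27me3 of WT NPCs thus lay on 733 PCGF5 peaks (6.10% of all) and H2AK119ub1 on 190 (1.58%). The peaks were selected on these 2 lists of WT NPCs, so their marks there are a description and not a finding. The deposited PCGF5 list also holds 4150 peaks with a −log10 p under 4, the cutoff given in the methods, and 267 of the 758 are among them. Keeping the peaks within that cutoff left 491 marked of 7863.

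The study asked what PCGF5 does while mouse embryonic stem cells (ES) become neural, and profiled chromatin by ChIP-seq. The cells were of the 46C line, which carries a Sox1-GFP reporter. ES were grown on inactivated mouse embryo fibroblasts with serum, LIF and 2i inhibitors, and NPCs were in-vitro differentiated neural cells collected on day 6 of suspension culture in knockout serum replacement medium. H2AK119ub1 and H3K27me3 were measured in WT cells and in PCGF5-depleted cells (shPCGF5), at both stages. The depleted cells carried a short hairpin RNA against PCGF5 from a lentivirus and came from clonal clusters picked after puromycin selection, so a clone and the depletion cannot be told apart. PCGF5 itself was pulled down through a Flag tag knocked into its own gene in cells labelled as wild type, in ES and in NPCs, and not in depleted cells. Each group was 1 library, 10 of the 16 samples had a peak list and the other 6 were inputs. No difference between groups could therefore be set against a replicate, and read depth is unknown. No expression was measured in these samples, so the identity of the cells could not be checked against marker transcripts, and the loss of PCGF5 from the depleted libraries could not be checked either.

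PCGF5 is a Polycomb group ring finger protein, and each protein of this family defines a form of Polycomb repressive complex 1 together with RING1A or RING1B, the ligases that add ubiquitin to histone H2A (H2AK119ub1). Polycomb repressive complex 2 adds methyl groups to histone H3 (H3K27me3), and the products of each complex help to recruit the other. In stem cells and early neural cells both marks lie over CpG-rich promoters of developmental regulators that are silent or poised in that lineage.

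The sequences below show what marked peaks look like beneath a promoter and how far they differ in CpG content. Each is a stretch of 150 bases, free of annotated exons, from within 1 PCGF5 peak, printed 5′ to 3′ on the strand of the gene with every CpG dinucleotide in capitals. Cyp26b1 had both marks in all libraries, Hoxb3 the strongest H2AK119ub1 peak, Gata5 stands for the GATA factors, Bmp6 was marked on the peak in both NPC lines and in no ES list, Ankrd33b had no mark on the peak in depleted NPCs, and Nodal and Pou3f2 are genes that the study examined. The 4933411K20Rik stretch is from an unmarked promoter peak for comparison.
Cyp26b1 (mm9 chr6:84538633-84538782, minus strand): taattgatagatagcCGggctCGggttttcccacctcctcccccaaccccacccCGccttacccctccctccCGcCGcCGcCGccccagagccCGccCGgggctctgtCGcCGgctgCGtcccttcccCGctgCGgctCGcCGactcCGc
Hoxb3 (mm9 chr11:96185452-96185601, plus strand): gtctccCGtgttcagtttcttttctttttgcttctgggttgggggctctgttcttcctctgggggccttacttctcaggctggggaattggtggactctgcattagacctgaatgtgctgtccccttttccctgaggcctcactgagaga
Gata5 (mm9 chr2:180069414-180069563, minus strand): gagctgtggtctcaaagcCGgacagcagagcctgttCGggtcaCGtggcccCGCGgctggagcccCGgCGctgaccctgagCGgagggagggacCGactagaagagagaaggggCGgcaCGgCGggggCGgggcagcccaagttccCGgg
Bmp6 (mm9 chr13:38438899-38439048, plus strand): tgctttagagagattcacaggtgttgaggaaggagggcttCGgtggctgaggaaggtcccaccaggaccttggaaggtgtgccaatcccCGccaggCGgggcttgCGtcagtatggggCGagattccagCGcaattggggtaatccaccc
Ankrd33b (mm9 chr15:31295116-31295265, minus strand): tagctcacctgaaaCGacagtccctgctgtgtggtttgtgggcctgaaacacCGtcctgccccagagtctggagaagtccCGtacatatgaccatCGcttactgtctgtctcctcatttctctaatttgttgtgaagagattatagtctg
Nodal (mm9 chr10:60882002-60882151, plus strand): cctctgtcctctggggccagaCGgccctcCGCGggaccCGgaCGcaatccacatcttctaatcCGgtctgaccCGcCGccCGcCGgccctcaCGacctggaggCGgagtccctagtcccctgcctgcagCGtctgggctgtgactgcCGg
Pou3f2 (mm9 chr4:22415481-22415630, minus strand): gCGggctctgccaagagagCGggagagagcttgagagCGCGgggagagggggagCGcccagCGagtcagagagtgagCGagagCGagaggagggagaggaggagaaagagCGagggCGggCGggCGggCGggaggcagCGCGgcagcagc
4933411K20Rik (mm9 chr8:47248701-47248850, plus strand): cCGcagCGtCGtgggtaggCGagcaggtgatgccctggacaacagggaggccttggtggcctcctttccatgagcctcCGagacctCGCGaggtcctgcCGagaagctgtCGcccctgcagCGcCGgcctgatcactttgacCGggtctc

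The printed stretches held 17 CpG for Cyp26b1, 15 for Pou3f2 and 14 for Nodal and Gata5, against 6 for Bmp6, 4 for Ankrd33b and 1 for Hoxb3. Marked peaks thus ranged from dense CpG islands to sequence with few CpG, and the unmarked stretch at 4933411K20Rik held 12. Over all peaks, CpG dinucleotides were counted in the 300 bp around each peak centre. The median was 17 in the 512 marked promoter peaks and 14 in the 2629 unmarked promoter peaks. Outside promoters it was 8 in the 246 marked peaks and 3 in the 8626 unmarked peaks. The share of peaks with 10 or more CpG was 72.3% and 59.9% at promoters, and 43.5% and 5.33% outside them. The difference by mark was therefore wider away from promoters. The 25 peaks with H2AK119ub1 alone stood apart from the rest, with a median of 1 CpG in 300 bp. Marked promoter peaks with and without a mark in depleted NPCs held similar numbers of CpG, with medians of 17 and 18.5.

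Short motifs were searched in the same 300 bp on both strands. The GC box GGGCGG was present in 45.3% of marked and 43.3% of unmarked promoter peaks. The E-box CACGTG was present in 3.91% of marked and 6.66% of unmarked promoter peaks, with 95% Wilson intervals of 2.54 to 5.96% and 5.77 to 7.67%. The other E-box searched, CAGCTG, was in 14.3% and 17.0%, the AP-1 letters TGANTCA in 4.69% and 4.60%, and the homeodomain letters TAATTA in 1.95% and 1.75%. The shares in all 12013 PCGF5 peaks were 17.9% for GGGCGG, 4.65% for CACGTG, 17.1% for CAGCTG, 6.53% for TGANTCA and 2.53% for TAATTA. The CCAAT box CCAAT was in 26.0% of marked and 30.05% of unmarked promoter peaks and 31.7% of all, the Sox letters ACAATG in 4.69%, 6.999% and 10.6%, and the GATA letters AGATAA in 4.30%, 5.48% and 9.44%. None of the 8 motifs had a share in marked promoter peaks whose interval lay above that of unmarked promoter peaks. Outside promoters, GGGCGG was in 23.6% of marked peaks (18.7 to 29.3%) and 8.42% of unmarked ones (7.85 to 9.02%), next to the CpG counts there of 8 and 3. CCAAT was in 23.2% of marked peaks outside promoters (18.3 to 28.8%) and 32.8% of unmarked ones (31.8 to 33.8%). These are matches of letters in a window and not sites. Wilson intervals in all comparisons cover counting error alone, and neighbouring peaks are not independent.

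Marked PCGF5 peaks lay mostly at promoters. With a promoter defined as a peak centre within 2500 bp of the start of a protein-coding transcript (GENCODE M1, mm9), 512 of the 758 (67.5%, 95% Wilson interval 64.1 to 70.8%) were at promoters, against 26.1% of all PCGF5 peaks. The other marked peaks were 138 between genes, 74 in introns and 34 in exons. Read the other way, 16.3% of promoter peaks of PCGF5 were marked, against 6.14% in exons, 3.13% between genes and 1.90% in introns. The 25 peaks with H2AK119ub1 alone had another distribution: 17 were intergenic and 4 were at promoters. Marked promoter peaks were centred a median of 99 bp downstream of the start site, 310 of them downstream or at it and 202 upstream, and 307 within 500 bp.

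Marked peaks were wider than other PCGF5 peaks but not more enriched. Their median width was 726.5 bp, against 412 bp over all PCGF5 peaks and 579 bp for unmarked promoter peaks. An overlap of 1 bp is met more easily by a wider peak, so width is not independent of the rule. Median fold enrichment of PCGF5 over its input was 2.19 in marked peaks and 2.22 over all. The mark usually covered much of the peak: H3K27me3 in WT NPCs covered a median of 70.0% of the 733 peaks it overlapped, 247 of them whole, and reached the peak centre in 479. H2AK119ub1 covered a median of 31.0% of its 190 peaks and reached the centre in 71. At the edge of the rule, peaks at Rbm28, Gng13, Nrgn and 2210011C24Rik were counted with 1, 3, 5 and 8 bp of overlap, and peaks at Igfbp5, Frmd3, Ltbp4 and Slc4a4 were not counted with gaps of 5, 9, 9 and 10 bp to the nearest mark. Close to this edge were 4 members with at most 10 bp of overlap and 44 unmarked peaks within 100 bp of a mark. A stricter cut-off changed more, since 479 peaks stayed marked when 50% of the PCGF5 peak had to be overlapped.

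The first question put to these peaks was whether the same sites were marked in the lists that had not chosen them. H3K27me3 was present at 507 of the 758 in depleted NPCs (66.9%, 63.5 to 70.1%), at 349 in WT ES (46.0%, 42.5 to 49.6%) and at 311 in depleted ES (41.0%, 37.6 to 44.6%). Over all NPC PCGF5 peaks the same lists overlapped 5.68%, 4.39% and 3.89%, and of the unmarked promoter peaks 3.27%, 3.16% and 2.66%. H2AK119ub1 was present at 163 in WT ES (21.5%), 147 in depleted ES (19.4%) and 139 in depleted NPCs (18.3%), with backgrounds of 2.76%, 1.93% and 1.42% over all peaks and 1.41%, 1.10% and 0.418% at unmarked promoter peaks. PCGF5 itself was found in ES at 5 of the 758 marked peaks (0.660%), which is the share over all NPC PCGF5 peaks (0.658%) and near the 0.989% of unmarked promoter peaks. The ES list of PCGF5 was short, with 653 peaks.

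**Figure D1:**
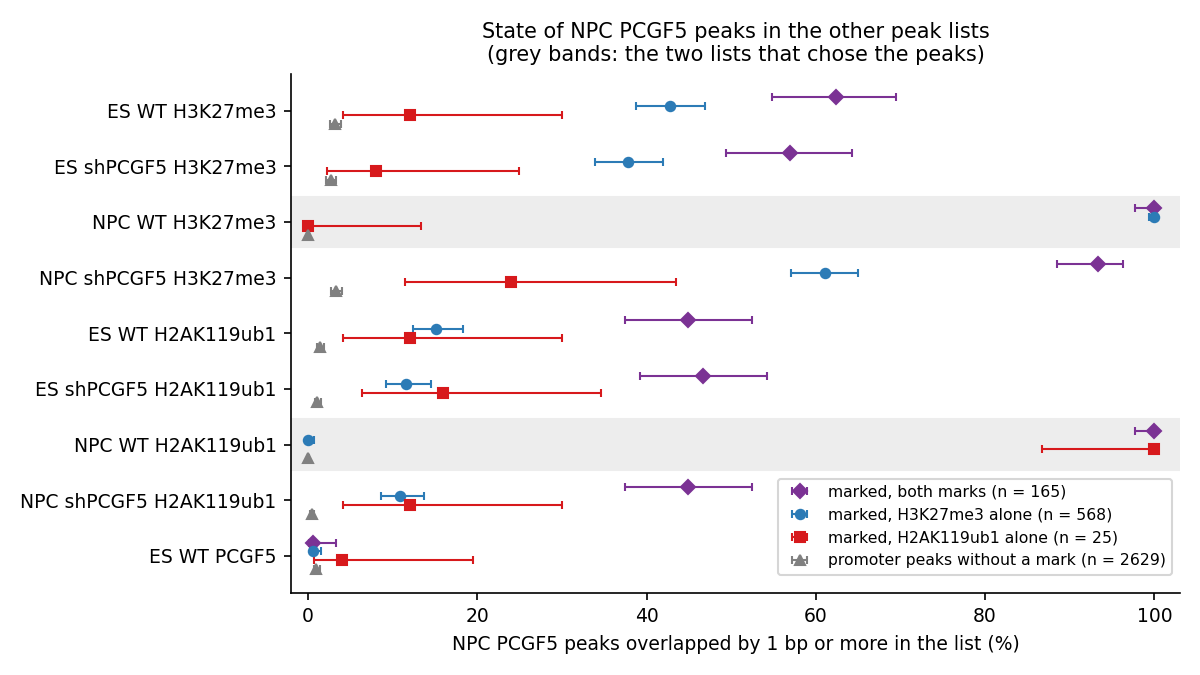
Share of NPC PCGF5 peaks overlapped by each peak list (horizontal axis, percent) for peaks with both marks, with H3K27me3 alone, with H2AK119ub1 alone and for promoter peaks without a mark. Points are shares, bars 95% Wilson intervals from 1 library per list, and grey bands mark the lists that chose the peaks. Peaks with both marks lie highest in every other histone list, for example 93.3% in H3K27me3 of depleted NPCs, and unmarked promoter peaks stay below 4%.

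Sites with both marks in WT NPCs were those most often marked elsewhere. Of the 165, 154 (93.3%, 88.5 to 96.2%) had H3K27me3 in depleted NPCs, against 347 of the 568 with H3K27me3 alone (61.1%, 57.0 to 65.0%). H2AK119ub1 was found in depleted NPCs at 44.8% of the former and 10.9% of the latter, and in WT ES at 44.8% and 15.1%. The peaks with both marks were also wider, with a median of 830 bp against 726.5 bp, and the part of width in this difference was not tested. Of the 25 with H2AK119ub1 alone, 6 had any mark in depleted NPCs and 6 in any ES list. In all, 458 marked peaks (60.4%) carried a mark in at least 1 of the 4 ES lists, against 7.51% of all PCGF5 peaks, and 300 did not.

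Some combinations of lists were common. The most frequent was H3K27me3 in WT NPCs and nowhere else, at 146 peaks (19.3%). Next came H3K27me3 in both NPC lines alone, at 106, and H3K27me3 in all 4 cell populations without H2AK119ub1, at 67. All 8 histone lists overlapped 32 peaks (4.22% of the marked peaks, 0.266% of all PCGF5 peaks, a count that the rule confines to them).

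The marks extended beyond the PCGF5 peak itself. Around the 758 centres, H3K27me3 covered 63.2% of sites at the centre in WT NPCs, 44.7% in depleted NPCs, 25.1% in WT ES and 15.7% in depleted ES. At 5000 bp downstream the values were 12.5%, 11.1%, 3.43% and 2.77%. The WT NPC curve is highest at the centre because that list chose the peaks, and the NPC curves approach each other with distance. H2AK119ub1 of WT NPCs covered 9.37% at the centre and 3.30% at 10000 bp downstream, and that of depleted NPCs 6.07% and 0.923%. The H2AK119ub1 list of WT NPCs chose 190 of the peaks, which raises its curve too, and no difference between the lines is read from these curves. That list covered 2.33 Mb of genome, against 1.12 Mb in depleted NPCs.

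**Figure D2:**
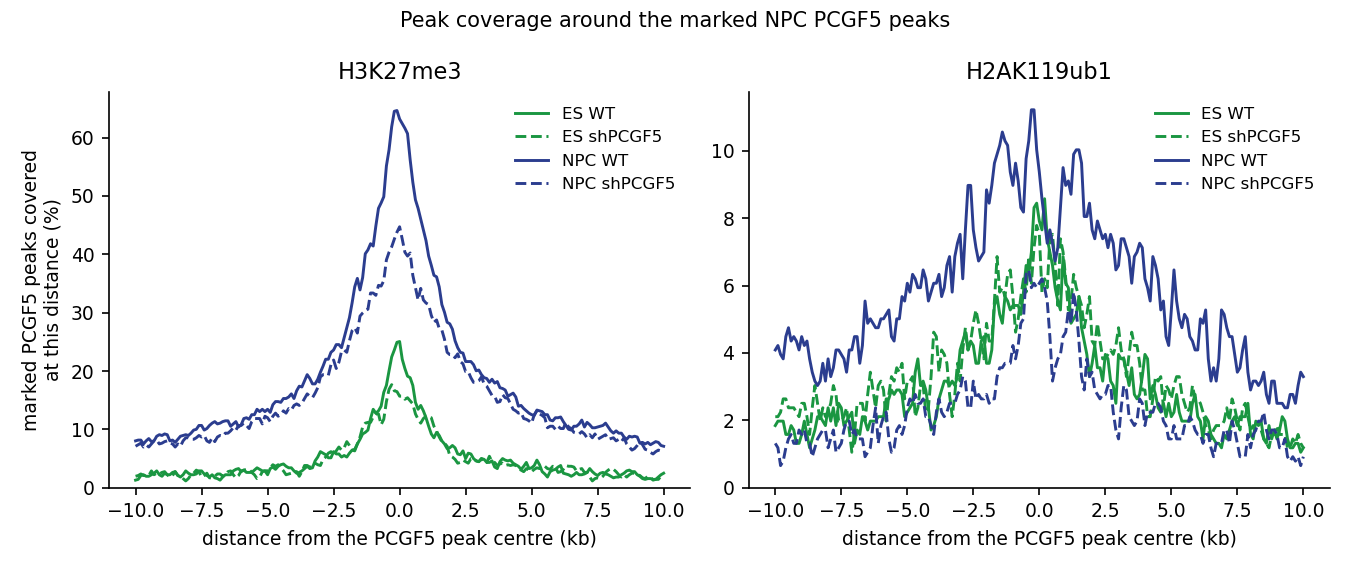
Percent of the 758 marked PCGF5 peaks (vertical axis) whose flank is under a peak at each distance from the PCGF5 centre (horizontal axis, kb), for H3K27me3 and H2AK119ub1. Solid lines are WT and dashed lines shPCGF5, ES in green and NPCs in blue, each from 1 library. H3K27me3 is highest near the centre in all 4 curves, from 63.2% in WT NPCs to 15.7% in depleted ES, where the top is nearly flat. At the centre H2AK119ub1 is lower, from 9.37% in WT NPCs to 6.07% in depleted NPCs.

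Whether depletion of PCGF5 went with fewer marks cannot be read from the marked peaks alone, since they were chosen in WT NPCs and could only be lost in the other line. The 12013 PCGF5 peaks treat both lines alike. In NPCs, 501 of these carried H3K27me3 in both lines, 232 in WT alone and 181 in depleted cells alone. The log2 ratio of depleted alone to WT alone was -0.36 (95% interval -0.64 to -0.08). Intervals of such ratios cover counting error over peaks alone. They do not measure the spread between libraries, since each line was 1 library. The H3K27me3 ratio was -0.76 when 50% of the PCGF5 peak had to be overlapped. It was -1.04 with histone lists of equal length (131 in depleted cells alone, 269 in WT alone). H2AK119ub1 was in both lines at 77, in WT alone at 113 and in depleted cells alone at 93 (log2 ratio -0.28, -0.68 to 0.11), and this direction turned when lists of equal length were compared (0.65) and in the higher-scoring 50% of each list (0.23). In ES, the same sites carried H3K27me3 in WT alone at 234 and in depleted cells alone at 174, and H2AK119ub1 at 213 and 113. Depleted NPCs had more H3K27me3 peaks than WT NPCs (14759 against 11371) over less of the genome (8.18 against 9.67 Mb). Per Mb that each list covered, PCGF5 peaks overlapped by H3K27me3 numbered 75.8 in WT and 83.4 in depleted NPCs, and by H2AK119ub1 81.4 and 151. Relative to the area called, the order of the lines was thus reversed for both marks. With equal numbers of peaks it was reversed for H2AK119ub1 and, for H3K27me3, the excess in WT was larger. The order of the lines therefore depends on how the amount called is taken into account.

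The 192 PCGF5 peaks with a mark in depleted NPCs alone (702 peaks had either mark there, 5.84% of all) resembled the marked peaks in width, with a median of 728 bp, and in PCGF5 fold, with a median of 2.18. They were at promoters less often (46.9%, 39.9 to 53.9%). Of the 192, 49 (25.5%) lay within 1000 bp of a mark peak of WT NPCs, against 2.43% of all PCGF5 peaks unmarked in WT NPCs. Conversely, 248 of the 758 marked peaks had no mark in depleted NPCs.

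H3K27me3 peaks that met PCGF5 were more often found in depleted NPCs than those that did not, but they were also wider. Of the 823 WT NPC H3K27me3 peaks that touched a PCGF5 peak, 586 (71.2%, 68.0 to 74.2%) were overlapped in depleted NPCs, against 57.5% (56.5 to 58.4%) of the 10548 that did not and 58.5% over the list. Their median widths were 862 and 439 bp. Within classes of width the shares were close: 31.7% and 31.7% up to 300 bp, 52.5% and 47.1% from 300 to 500 bp, 68.7% and 68.7% to 1000 bp, 90.5% and 88.5% to 2000 bp, and 98.3% and 97.3% above. H2AK119ub1 peaks gave another picture, with 40.8% (34.6 to 47.3%) of the 228 that touched PCGF5 and 25.4% of the 5526 that did not found in depleted NPCs, and 26.0% over the list. Median widths here were 276 and 265 bp. The share was higher with PCGF5 in each class of width, by the widest margin from 300 to 500 bp (56.4% against 27.5%). The classes above 300 bp were small, with 39, 44, 17 and 3 peaks that touched PCGF5. Above 500 bp the intervals with and without PCGF5 overlapped.

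**Figure D3:**
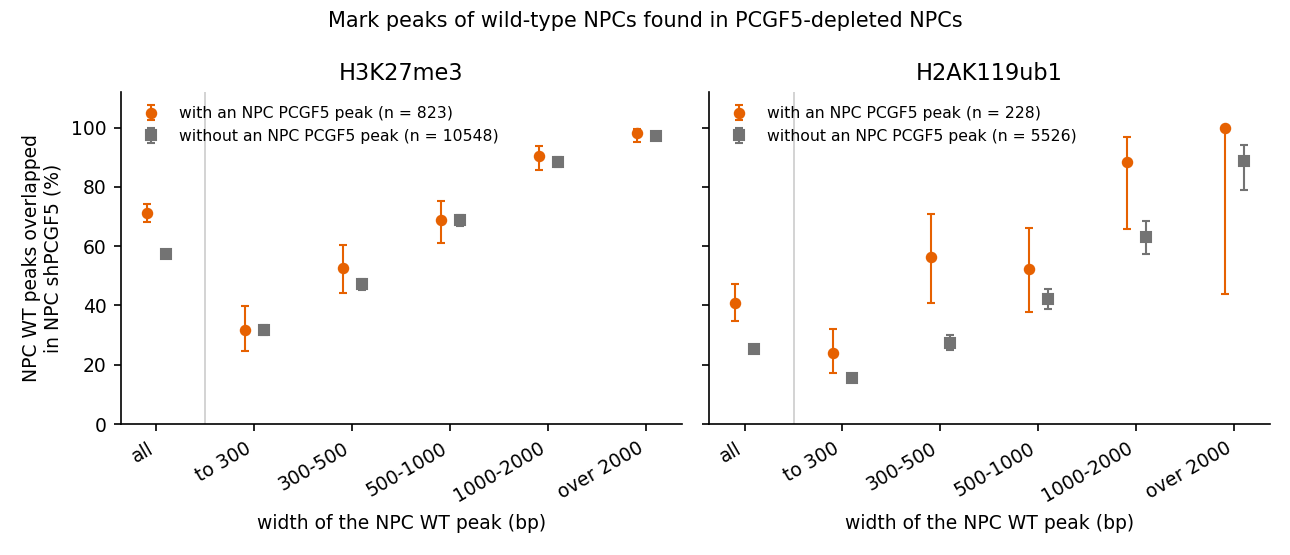
Percent of WT NPC mark peaks that are overlapped in depleted NPCs (vertical axis) by their width (horizontal axis, bp), for peaks that touch an NPC PCGF5 peak (circles) and for those that do not (squares), with 95% Wilson intervals. For H3K27me3 the gap seen over all peaks, 71.2% against 57.5%, is nearly closed within each width. For H2AK119ub1 the circles stay above the squares, with intervals that overlap above 500 bp.

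Among marked peaks the same held. The 501 with H3K27me3 in both NPC lines lay under WT peaks with a median width of 1590 bp and fold of 6.02, and the 232 with H3K27me3 in WT alone under peaks of 517 bp and 4.56-fold. PCGF5 fold did not separate them, with medians of 2.19 and 2.21. A lost overlap also need not mean a bare promoter: of the 175 marked promoter peaks without H3K27me3 on the peak in depleted NPCs, 81 (46.3%) had a peak of it elsewhere within 2500 bp of the start site.

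Between stages, H3K27me3 lay at more of these sites in NPCs than in ES. Over all 12013 peaks in WT cells, 346 carried it at both stages, 387 in NPCs alone and 181 in ES alone, and in depleted cells 318, 364 and 149. H2AK119ub1 went the other way in WT, with 77 at both stages, 113 in NPCs alone and 255 in ES alone, and in depleted cells 85, 85 and 147. The H3K27me3 lists of NPCs also covered more of the genome (9.67 and 8.18 Mb in WT and depleted cells) than those of ES (4.31 and 3.84 Mb), and the H2AK119ub1 lists less (2.33 and 1.12 Mb, against 2.49 and 2.09 Mb). By these counts the order of the stages was the same in both lines for each mark. Per Mb covered, H3K27me3 overlapped 122 PCGF5 peaks in WT ES and 75.8 in WT NPCs, and 121 and 83.4 in depleted cells. For H2AK119ub1 the values were 133 and 81.4 in WT cells, and 111 and 151 in depleted cells. The order of the stages thus also depends on how the amount called is taken into account. Where H2AK119ub1 lay on a PCGF5 peak, H3K27me3 of the same cells lay there too at 55.4% of peaks in WT ES, 49.1% in depleted ES, 86.8% in WT NPCs and 88.2% in depleted NPCs. This was not particular to PCGF5 sites in WT NPCs. Counted by H2AK119ub1 peaks there, H3K27me3 overlapped 87.3% of those that touched PCGF5 and 81.1% of those that did not. The share away from PCGF5 was not counted in the other populations.

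At the promoters, 515 protein-coding genes had a marked PCGF5 peak. This is 2.32% of the 22232 annotated genes and 16.9% of the 3055 genes with any NPC PCGF5 peak at a promoter. The lists with the highest shares of marked genes were those of GATA factors, anterior brain genes, Nkx, LIM homeobox and Pax genes, and no test was made of the order. Of the 6 GATA factors, which specify blood, heart and endoderm, 4 had a marked peak, Gata2, Gata3, Gata5 and Gata6, and the other 2 had no PCGF5 peak. Of 21 genes that pattern the anterior brain, 6 were marked, among them Vax2, Nr2f2 and Gbx1, as were 4 of 14 Nkx homeobox genes, 3 of 12 LIM homeobox genes and 2 of 9 Pax genes. Other transcription factor lists had lower shares, with 7 of 42 forkhead genes, 1 of 6 Irx genes, 2 of 14 POU genes, 2 of 19 proneural genes, 4 of 39 genes of the Hox clusters, 3 of 31 T-box and mesendoderm genes and 1 of 18 Sox genes. In the GATA, anterior brain, Nkx, LIM, Pax and Hox lists no gene had an unmarked PCGF5 peak alone. No member of the Dlx, sine oculis homeobox, Zic and Gli or Notch lists was marked.

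Some genes of the differentiated nervous system were marked as well. Of 82 neurotransmitter receptor genes, 10 were marked, among them Grin1, Grin2b, Grin2c and Grin2d, which encode subunits of the NMDA glutamate receptor, and the adrenergic receptor genes Adra2b, Adra2c and Adrb1. Of 67 potassium channel genes 7 were marked, and of 67 axon guidance genes 4. Among signalling genes, the marked ones were 6 of 44 in the Wnt list, 3 of 22 FGF ligands (Fgf5, Fgf9 and Fgf20), 3 of 28 in the Nodal and Smad list (Nodal, Inhbb and Tgfb1), 2 of 38 in the BMP list (Bmp6 and Nog) and 2 of 18 in the retinoic acid list (Cyp26b1 and Aldh1a2). Ribosomal protein genes were the contrast: 18 of 75 had a PCGF5 peak and 0 had a marked one. Of 21 pluripotency genes 1 was marked (Prdm14), of 16 fibroblast genes 1 (Pdgfra), of 36 Polycomb genes 1 (Phc2), and of 34 imprinted genes 3 (Grb10, Peg12 and Calcr).

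**Figure D4:**
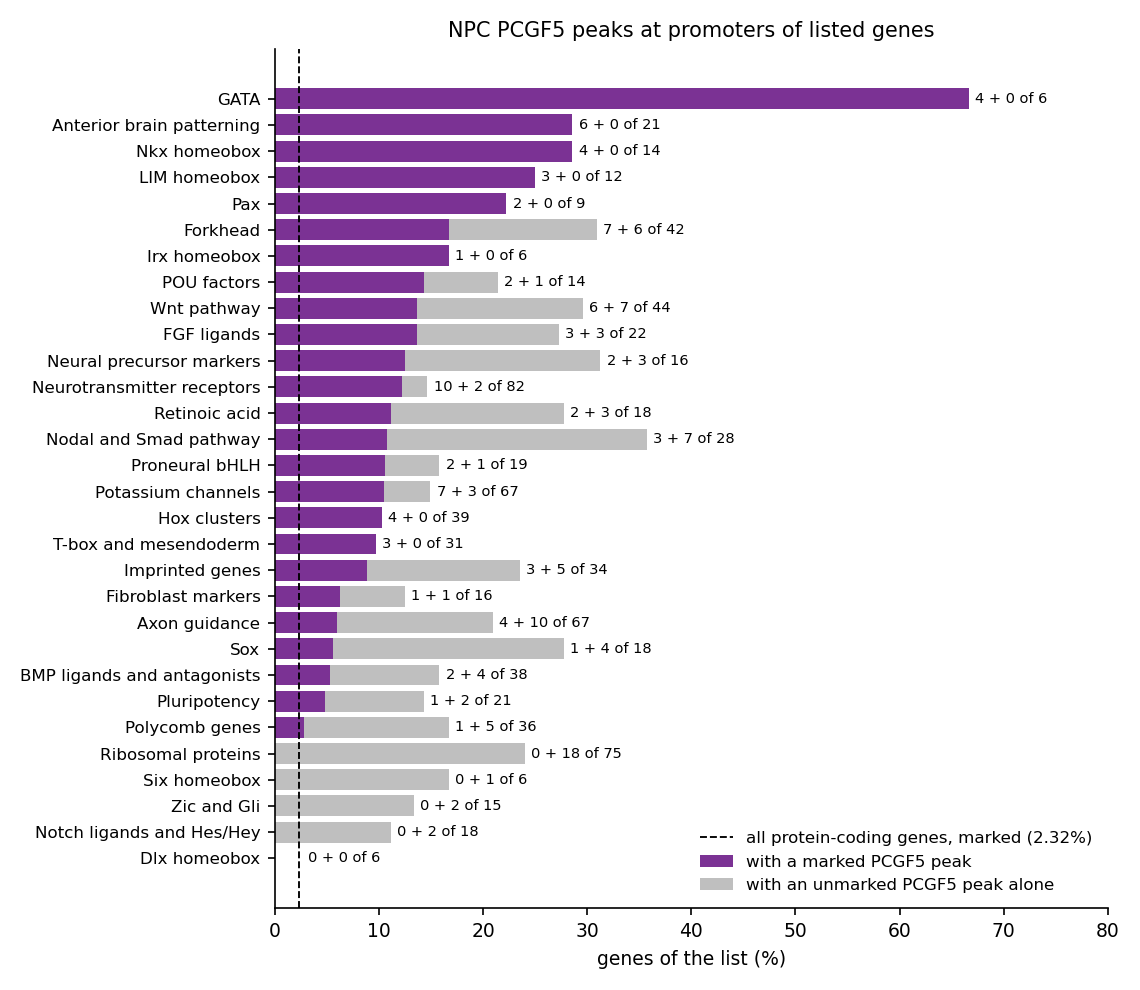
Percent of the genes of each list (horizontal axis) with a marked NPC PCGF5 peak at the promoter (purple) or an unmarked one alone (grey), with the gene numbers beside each bar and the share of marked genes over all protein-coding genes as a dashed line at 2.32%. The GATA list reaches 4 of 6 genes, and the ribosomal list holds 18 genes with unmarked peaks and 0 with marked ones.

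Single genes are given by the fold enrichment of the mark peak over its own control, as the peak caller wrote it. A gene absent from a list has no peak there, which is not a level of 0, and folds of different libraries are not on a common scale. Cyp26b1, which encodes an enzyme that breaks down retinoic acid, had a PCGF5 peak of 2244 bp and 5.50-fold and was marked in all 8 lists. Its H3K27me3 folds were 5.63 in WT ES, 7.38 in depleted ES, 9.45 in WT NPCs and 7.68 in depleted NPCs. Its H2AK119ub1 folds were 5.02, 5.68, 7.98 and 3.76 in that order. Both marks thus lay over the same peak at both stages and in both lines.

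Vax2, a homeobox gene of the ventral eye, had the highest H3K27me3 fold among the genes named, 14.3 in WT NPCs, with 6.26 in depleted NPCs, 5.36 in WT ES and 5.07 in depleted ES. Its H2AK119ub1 folds were 8.89 and 7.48 in WT and depleted NPCs and 6.45 and 4.37 in WT and depleted ES. Other genes in all 8 lists were Lhx1, Foxb1, Gsx1, Hoxb2, Nkx1-1, Neurog1, Uncx, Pcdh8, Nxph4, Flt1, Unc5a, Avp and Hrk. Lhx1, Foxb1, Gsx1, Hoxb2, Nkx1-1 and Uncx encode homeodomain or forkhead proteins, and Neurog1 encodes a proneural basic helix-loop-helix protein. In Lhx1 H3K27me3 was listed at 8.79-fold in WT and 9.42-fold in depleted NPCs, each over its own control.

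Hoxb3, of the HoxB cluster that patterns the hindbrain, had the highest H2AK119ub1 fold of any marked promoter peak, 10.5 in WT NPCs, and no H2AK119ub1 peak there in the other 3 populations. H3K27me3 was 7.23 in WT and 8.03 in depleted NPCs and absent from both ES lists. Within 2500 bp of the Hoxb3 start, H2AK119ub1 covered 4656 bp in WT NPCs, 194 bp in depleted NPCs, 541 bp in WT ES and 2328 bp in depleted ES. Hoxb5, Hoxc11 and Hoxb2 also kept H3K27me3 in depleted NPCs, with 4.52, 4.41 and 5.56-fold at their most enriched PCGF5 peaks.

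The GATA factors differed in what was listed on the PCGF5 peak itself. Gata2 and Gata3 carried H3K27me3 in both NPC lines (8.32 and 4.89 for Gata2, 7.44 and 4.43 for Gata3, WT first) and no mark on the PCGF5 peak in ES. Gata5 and Gata6 carried it in all 4 populations, with 5.36, 6.22, 5.85 and 2.99 for Gata5 and 5.36, 5.84, 8.68 and 5.71 for Gata6, in the order WT ES, depleted ES, WT NPCs and depleted NPCs. Around the start sites Gata2 did not stand with Gata3: within 2500 bp, H3K27me3 of WT ES covered 2830 bp at Gata2, 1496 bp at Gata5, 1434 bp at Gata6 and 350 bp at Gata3. On the PCGF5 peak itself, H2AK119ub1 of WT NPCs lay at Gata3 (3.22) and Gata6 (4.04), and that of depleted NPCs at none of the 4. Within 2500 bp of the start, H2AK119ub1 of depleted NPCs did cover 1026 bp at Gata2, 607 bp at Gata3 and 1115 bp at Gata6. That of WT NPCs covered 3032, 2943 and 2763 bp in the same order. Gata5 had 0 bp in both NPC lines.

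Of the genes that the study examined, Nodal and Pou3f2 had marked peaks and differed between the lines. Nodal encodes a TGF-β family ligand that directs mesendoderm formation. Its marked PCGF5 peak of 554 bp and 2.30-fold, in the first kilobases of the gene, was covered by H3K27me3 in WT NPCs (7.13-fold) and by no mark peak in the other 7 histone lists. Within 2500 bp of the Nodal start, H3K27me3 covered 1379 bp in WT NPCs and 0 bp elsewhere. Pou3f2 encodes a POU factor of neural precursors, also called Brn2. Its H3K27me3 folds were 4.83 in WT ES, 8.15 in depleted ES, 4.49 in WT NPCs and 6.54 in depleted NPCs, and its H2AK119ub1 was listed in the depleted lines alone, at 4.06 in ES and 5.44 in NPCs. H3K27me3 covered 1953 bp around the Pou3f2 start in WT and 3510 bp in depleted NPCs. Cdh2, which encodes N-cadherin, had a PCGF5 peak that was unmarked in WT NPCs, with H3K27me3 (4.24) and H2AK119ub1 (4.15) in depleted NPCs. No NPC PCGF5 peak of the deposited list lay within 2500 bp of the start of Lefty1, Lefty2, Nes or Pcgf5. The study reports PCGF5 at the Lefty1, Lefty2 and Nestin promoters in NPCs by ChIP-qPCR, so an absent peak is not absent binding. By ChIP-qPCR it also reports less of both marks at Nodal in PCGF5-deficient NPCs, and a fall of both at Pou3f2 during differentiation. The lists differ from this, with no H2AK119ub1 peak at Nodal. Around the Pou3f2 start, H3K27me3 covered 901 bp in WT ES and 1953 bp in WT NPCs. Called peaks and ChIP-qPCR are unlike measures.

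Promoter peaks with H3K27me3 in WT NPCs and no mark in depleted NPCs, in order of WT fold, began with Pgk1 (13.7), Ankrd33b (11.9), Camk2b (10.7), Nxph4 (9.74), Grb10 (9.27), St8sia1 (8.85), Htr5b (8.70), C2cd4b (8.61), Wbscr17 (8.40) and Casz1 (8.12). Pgk1 is the X-linked gene of a glycolytic enzyme, and its promoter had no mark in the other 7 histone lists and none within 2500 bp of its start. This promoter is also widely used in selection cassettes, and a peak list cannot tell the gene's own copy from a construct. Camk2b, St8sia1 and C2cd4b had no H3K27me3 within 2500 bp of the start in depleted NPCs either. Ankrd33b, Grb10, Htr5b, Wbscr17 and Casz1 did, from 719 bp at Htr5b to 2004 bp at Grb10, and the Nxph4 peak named here is 1 of its 2, the other being marked in all 8 lists. The list thus mixes promoters bare of H3K27me3 in the depleted line with promoters where the PCGF5 peak lay outside what was called.

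Marked in both NPC lines and in no ES list on the peak were Bmp6 (11.0 in WT and 4.89 in depleted NPCs), Islr2 (10.9 and 4.41), A330008L17Rik at the Cdh8 promoter (8.67 and 2.80), Gad2 (8.66 and 3.53), Grrp1, Irf5, Inhbb, Gata2, Foxd2 and Sfmbt2. Gad2 encodes an enzyme of GABA synthesis, Bmp6 a BMP ligand and Inhbb a subunit of activin B. The pattern concerns the peak and not the whole promoter. Within 2500 bp of the start, WT ES had 2830 bp of H3K27me3 at Gata2, 1967 bp at Inhbb, 1356 bp at Foxd2 and 1030 bp at Bmp6, at most 592 bp at 5 others, and none at Sfmbt2. Inhbb had a further marked peak that H3K27me3 of WT ES overlapped. The WT fold exceeded the depleted fold in each of these 10 genes, which were ranked on the WT fold. Pax6, a regulator of the dorsal forebrain and eye, had H3K27me3 of 10.5 in WT NPCs, 5.01 in depleted NPCs and 5.07 in depleted ES, and none on the peak in WT ES. T, the Brachyury gene of the primitive streak, had it in all 4 populations, at 4.61, 5.45, 4.53 and 6.69 in WT ES, depleted ES, WT NPCs and depleted NPCs.

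**Figure D5:**
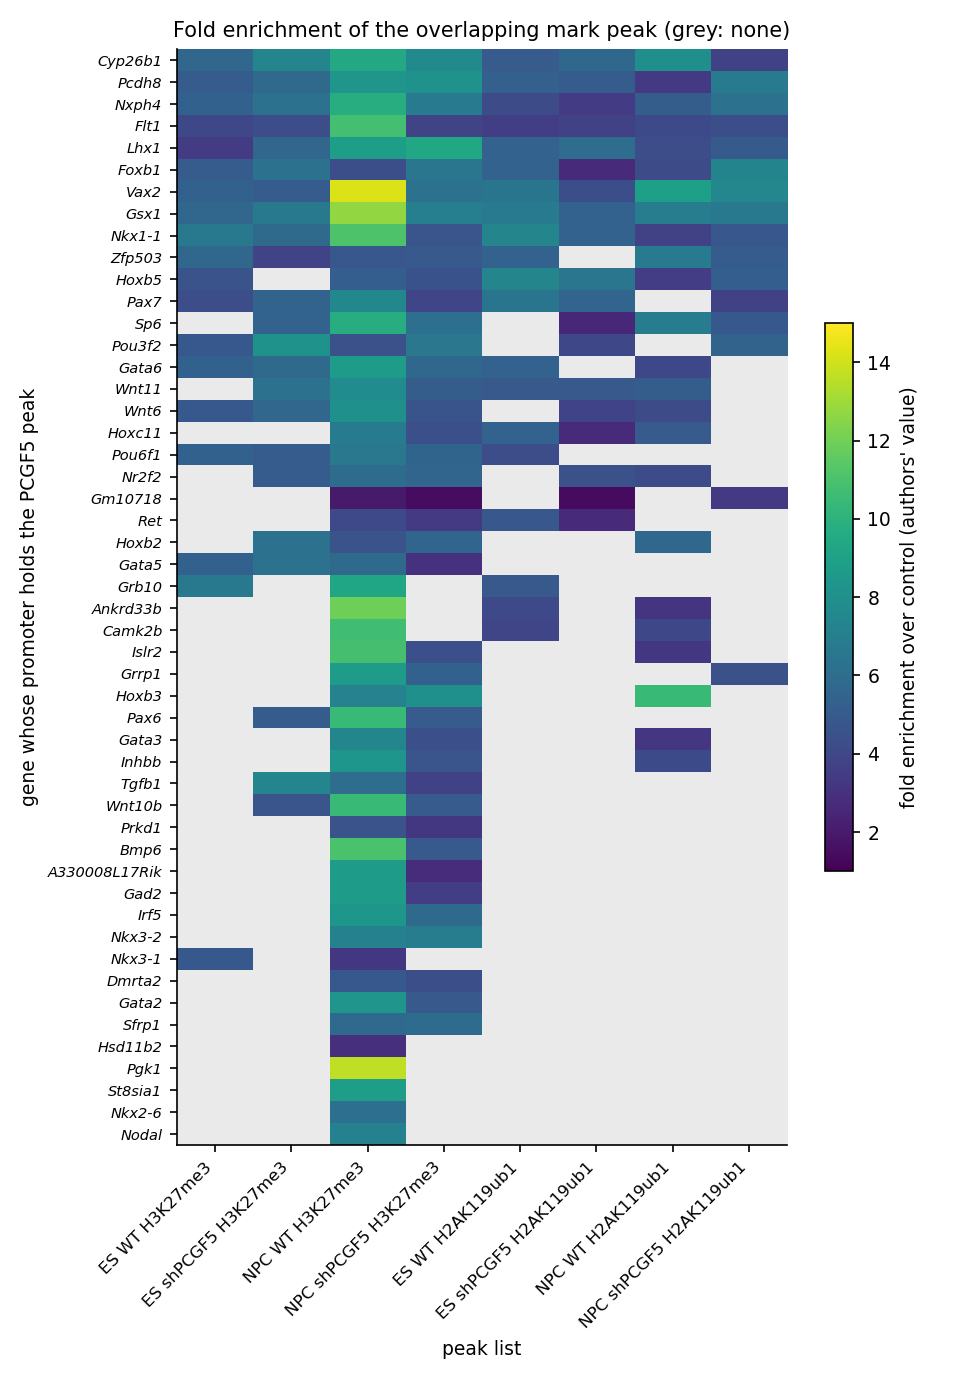
Fold enrichment, as deposited, of the mark peak that overlaps the marked PCGF5 peak of 50 named genes (rows) in each of the 8 histone lists (columns), with grey where the list has no peak there. Genes are sorted by the number of lists, from Cyp26b1 with 8 to Nodal with 1, and 1 peak is drawn per gene, which for Hoxb2 is the one with the higher PCGF5 fold. The WT NPC H3K27me3 column is filled by the choice of peaks, with the brightest cell at Vax2 (14.3).

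The strongest PCGF5 signals among marked promoter peaks lay close together in the genome. Some 5 Mb windows of the genome held 5 or more PCGF5 peaks of 8-fold or more. In such windows lay 22 marked peaks (2.90%), 17 of them on chromosome 11. The share was 4.20% over all PCGF5 peaks and 4.79% of unmarked promoter peaks, so these windows were not particular to marked peaks. Among the marked promoter peaks the highest were Vstm2a (21.5-fold), Egfr (12.8-fold) and Gas2l1 (12.5-fold), all on chromosome 11. In each of these 3, the PCGF5 peak itself was overlapped by H3K27me3 of WT NPCs and by no other histone list. Within 2500 bp of the start, depleted NPCs did have H3K27me3, over 845 bp at Vstm2a, 491 bp at Egfr and 359 bp at Gas2l1. At Egfr it also covered 696 bp in WT ES and 314 bp in depleted ES. Leaving out all peaks in such windows left 736 marked peaks, and 67.3% of them had H3K27me3 in depleted NPCs. Outside the windows the most significant marked promoter peak was Grb10, an imprinted gene for a growth factor receptor adaptor (9.97-fold), which is also on chromosome 11. It was followed by Gm10718 near the start of chromosome 9, whose PCGF5 fold was only 1.38, and by Cyp26b1, Hsd11b2, Prkd1, Ret, Scube3, Nkx3-2, Tmem163 and Hapln4, with 4.12 to 5.50-fold. Grb10, Gm10718 and Camk2b were also the 3 promoters among the 5 marked peaks with an ES PCGF5 peak. The other 2 were intergenic, at chr11:20278963-20279396 near Gm12033 and at chr6:3132831-3133669, where the nearest gene, Samd9l, started 201756 bp away.

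Of the 138 intergenic marked peaks, the most significant outside windows of high fold was at chr6:90937005-90937356, 30349 bp from the start of Nup210. It had 5.19-fold PCGF5 and H3K27me3 in both NPC lines and in WT ES. The one at chr2:94081304-94082834, 83947 bp from Hsd17b12, had H3K27me3 in all 4 populations and H2AK119ub1 in WT ES.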

How the data were processed

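H2AK119ub1 and H3K27me3 ChIP-seq was done on MNase-digested, lightly fixed chromatin with a Drosophila chromatin spike-in, and Flag ChIP-seq of PCGF5 on sonicated chromatin fixed with EGS and formaldehyde. The authors aligned reads to mm9 with Bowtie2 and called peaks with MACS2 2.1.0 per library against its input, histone peaks with default settings and PCGF5 peaks on p and then q thresholds given in their methods. The deposited PCGF5 lists keep to the q threshold but not to that of p, which 4150 NPC and 9 ES peaks miss. All deposited peaks were used. The spike-in does not enter the peak lists. Deposited columns are a score, the fold enrichment over control (a ratio), −log10 p and −log10 q of every peak. They hold no read counts, so depth is unknown.

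Peaks were compared by overlap of 1 bp or more (Python 3.11.15, pandas 2.3.3), which gave the same counts as bedtools 2.31.1 in all 9 pairs of lists checked and found every planted overlap in simulated lists. Genes were protein-coding transcripts of GENCODE M1, with a start within 2500 bp of the peak centre. Sox1 was among the listed genes with no such transcript and was not analysed here. Sequences were read from the mm9 genome. Shares carry 95% Wilson intervals. With 1 library per group no test of conditions was made. The marked peaks, gene lists and comparisons were chosen with earlier results of these data known. Named genes were those with the highest PCGF5 −log10 q inside and outside windows of high fold, the first 10 in each of 4 patterns of marks, up to 4 per gene list, and those the study examined. Listed genes named beyond these were picked after their values were seen. Some genes that the rule names are not reported here. The alternatives were 50% overlap, the higher-scoring 50% of each list, histone lists of equal length, q of 0.05 or less, histone peaks within 1000 bp merged, chromosomes 1 to 19, no windows of high fold, a promoter window of 1000 bp and, chosen after seeing the data, PCGF5 peaks within the stated p cutoff.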

Additional observations from a re-analysis of the deposited data

How the results depend on the processing

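No paired analysis was possible because each group was 1 library, and no library could be left out for the same reason. Restricting histone peaks to q of 0.05 or less, the analysis to chromosomes 1 to 19, or PCGF5 peaks to those outside windows of high fold moved none of the counts, shares or ratios beyond their interval, or 1.5 times for a count. Requiring 50% of the PCGF5 peak to be overlapped left 479 marked peaks and 322 genes. Shares then fell to 60.1% for H3K27me3 in depleted NPCs, 28.4% in WT ES and 18.998% in depleted ES, and to 6.26%, 8.56% and 7.93% for H2AK119ub1 in depleted NPCs, WT ES and depleted ES. The log2 ratios of depleted alone to WT alone became -0.76 for H3K27me3 and -1.07 for H2AK119ub1. The higher-scoring 50% of each list left 263 marked peaks and 172 genes, with H3K27me3 shares of 60.1% in depleted NPCs, 36.9% in WT ES and 35.4% in depleted ES, an H2AK119ub1 share of 15.2% in depleted ES, a gap of 8.04 percentage points between H3K27me3 peaks with and without PCGF5 found in depleted NPCs (13.7 in the report), and a reversed log2 ratio for H2AK119ub1 of 0.23. Histone lists of equal length gave 60.8% for H3K27me3 in depleted NPCs, 13.1% and 12.3% for H2AK119ub1 in WT and depleted ES, a log2 ratio of -1.04 for H3K27me3 and a reversed one of 0.65 for H2AK119ub1. Merging histone peaks widened the gap between peaks with and without PCGF5 to 21.5 points for H3K27me3 and 22.1 for H2AK119ub1. A promoter window of 1000 bp lowered the promoter share to 54.2%. Keeping PCGF5 peaks within the stated p cutoff, chosen after seeing the data, left 491 marked peaks and 327 genes, and the other 12 values stayed within their intervals. Fewer or narrower peaks follow from the construction of the first 2 settings, and the cause was not tested for the others. Of the 101 named genes, 48 kept a marked promoter peak in the higher-scoring 50%, 72 within the p cutoff and 78 with 50% overlap.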

Other observations

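Some gene groups outside the lists caught the eye among the marked promoters, and they were chosen after their values were seen. Of 11 immediate early genes, transcription factor genes that respond rapidly to stimuli, Jun, Junb, Jund, Fosb, Egr2 and Egr3 had a marked PCGF5 peak and Fos, Fosl1, Fosl2, Egr1 and Egr4 had none. Jun and Junb carried H3K27me3 on the peak in WT NPCs (3.71 and 5.27-fold) and depleted NPCs (3.51 and 3.52-fold) and in no ES list. Jund and Fosb carried it on the peak in WT NPCs alone (4.24 and 4.94-fold). Egr3 was overlapped in 7 of the 8 histone lists.

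The neurofilament genes Nefl, Nefm and Nefh, which encode the intermediate filaments of neurons, all had a marked peak. H3K27me3 was 6.55-fold at Nefl in WT NPCs alone, and 5.20 and 5.67-fold at Nefm in WT and depleted NPCs. At Nefh it was 9.14-fold in WT NPCs, 5.62-fold in depleted NPCs and 5.84-fold in depleted ES. Nefh lies in a window of high PCGF5 fold (9.82-fold). The genes of the enzymes of GABA synthesis, Gad1 and Gad2, were marked too. Gad1 had H3K27me3 of 12.8-fold in WT NPCs, 4.18-fold in depleted NPCs and 7.03-fold in depleted ES.

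Among the 192 PCGF5 peaks marked in depleted NPCs alone, 175 carried H3K27me3 and 31 H2AK119ub1, and 85 (44.3%) overlapped a mark in at least 1 ES list. They included the promoters of Cdh2 and Cdh6, which encode cadherins, with H3K27me3 of 4.24 and 6.24-fold, and these genes were likewise picked after their values were seen.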
